A study of Mus musculus with 17 samples.

Results

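Elongating spermatids sorted for a Prm1-EGFP reporter (PrmES, 1 library) were set against elongating spermatids sorted by DNA and RNA dyes, the early (EES, 3 libraries) and late (LES, 3 libraries) pools. These 7 libraries belong to an RNA-seq series of 17 libraries from sorted mouse testis cells. They were chosen by their titles and column names and not by any measured value. PrmES cells had been stained with Hoechst 33342, a DNA dye, and EES and LES cells with Hoechst 33342 and SYTO 16, a dye that also binds RNA. Per the labels, all were male C57BL/6JRj mice with an age of 3 months and a genotype given as WT. That genotype conflicts with the reporter named in the PrmES title, which was followed here, and the labels describe neither the reporter construct nor how many mice were pooled. The PrmES column of the gene table also carries another name prefix than the dye-sorted ones. Juvenile round spermatids (RS23, 1 library) are 23 days post partum in the title. Their label gives an age of 3 months, and the title was followed here. RS23 is the other library stained with Hoechst 33342 alone, and its column in the gene table carries the same name prefix as that of PrmES. The difference of RS23 from adult dye-sorted round spermatids (RS, 3 libraries) is given beside that of PrmES. The reporter, the dyes, the sort and the name prefix change together between PrmES and the dye-sorted libraries, so they cannot be told apart. With 1 library on the reporter side there is no test, and no p-value is given.

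Elongating spermatids are the haploid germ cells that build the sperm head and tail while their nucleus condenses. Histones are replaced first by transition proteins and then by protamines, small arginine-rich proteins that pack DNA tightly. Transcription stops during elongation, and many messages, Prm1 among them, are stored with bound proteins and translated later, so reporter protein and message need not peak in the same cells. Excess cytoplasm with its RNA is shed at the end.

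Library totals, inferred from the deposited values, were 149.2 M (mega) reads for PrmES and 90.6 to 121.2 M for the 6 dye-sorted libraries. In genes of the table lay 81.3% of PrmES reads, against 82.1% to 87.7% of dye-sorted reads. In de novo genes the share was 95.2% for PrmES, 97.9% for EES replicate 2 and 105.1% to 107.8% for the other 5 dye-sorted libraries. A share above 100% cannot hold if each read counts once within the total, and its origin was not tested. Levels are RPKM: the reads of a gene divided by its exon length in kilobases and by the library total in M. EES replicate 2 stood apart from the other 5 dye-sorted libraries. Across genes its rank correlation with them was 0.722 to 0.818, against 0.923 to 0.987 among those 5, and Acrv1, an acrosomal protein made in round spermatids, had 95.2 RPKM in it against 3.05 to 8.14 RPKM in the other 5. PrmES had rank correlations of 0.811 to 0.866 with those 5, 0.761 with EES replicate 2 and 0.444 to 0.487 with the RS libraries. These correlations are across 8217 genes of single libraries and are descriptions. Each of the 17 columns of the gene table matched its own column of the de novo table best. PrmES carried the defining messages of its label: Prm1, Prm2, Tnp1, Tnp2 and Odf1 all exceeded 1000 RPKM, while the spermatocyte gene Sycp3 had 17.7 RPKM in PrmES, within the dye-sorted range of 11 to 24.7 RPKM.

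**Figure D1:**
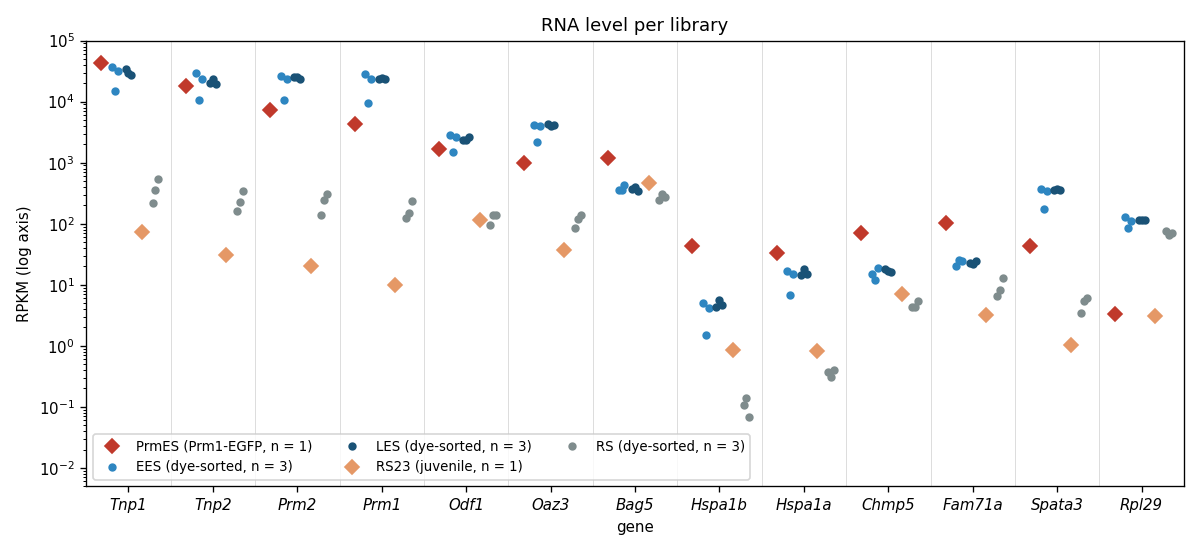
RPKM per library (log axis) of 13 genes, with PrmES and RS23 as diamonds and the EES, LES and RS libraries as dots. PrmES lies below all 6 dye-sorted elongating libraries for Prm1 and Rpl29 and above all of them for Tnp1, Bag5, Hspa1b, Chmp5 and Fam71a.

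The DNA-packing genes separated from each other in PrmES. Prm1, whose reporter defined the sort, had 4380 RPKM in PrmES, against 28436, 9452 and 23463 RPKM in EES and 23810, 24591 and 23495 RPKM in LES. It was thus 2.16-fold below the lowest dye-sorted library, EES replicate 2, and 5.40-fold below the median of the 6. Tnp1, transition protein 1, had 43618 RPKM in PrmES, against 36638, 14671 and 31896 RPKM in EES and 34127, 29189 and 26948 RPKM in LES, above all 6 and 1.19-fold above the highest. The ratio of Prm1 to Tnp1 within a library does not depend on the scale between libraries. It was 0.10 in PrmES and 0.644 to 0.872 in the dye-sorted elongating libraries, and 0.135 in RS23 and 0.432 to 0.566 in RS. Prm2 had 7279 RPKM in PrmES, below the dye-sorted range of 10446 to 26577 RPKM by less than 2-fold. Tnp2 and Prm3 lay within their dye-sorted ranges, with 18016 RPKM in PrmES against 10630 to 29067 RPKM for Tnp2 and 717 RPKM against 665 to 1376 RPKM for Prm3. Together the 5 genes took 4.72% of the PrmES reads in genes and 3.32% to 8.30% of those in the dye-sorted libraries. Prm1 no longer passed the 2-fold margin when each library was centred on its median gene or within classes of GC content, or after quantile normalization. Its log2 difference from the median of the 6 was -2.43 as deposited and -2.73, -2.65 and -0.16 under those scalings.

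A gene was called higher or lower where PrmES lay outside all 6 dye-sorted libraries and at least 2-fold past the nearest, with 0.01 RPKM added to every value, among genes with a mean of at least 1 RPKM over the 7 libraries. Of 8217 such genes, 296 were higher (3.6%) and 387 were lower (4.71%) in PrmES. PrmES was above all 6 by any margin for 22% of the genes and below all 6 for 24.6%. EES replicate 2 held many genes inside the dye-sorted range: without it, 723 genes were higher and 600 lower. By construction, leaving out a dye-sorted library can add calls but lose none. Of the 296 higher genes, 116 passed the filter only through their PrmES level, so their calls are not independent of that level. Among them are H2al1o, H2bc4, Rpl5, Cldn11, Alas2, Rnu11, Snord118, Gm7977 and Gm20594, all named below. The median log2 difference of all genes, PrmES minus the median of the 6, was 0.24, and list medians below are read against that value. Nothing in the labels says that replicates came from separate animals, so their spread may be technical. In bulk RNA, fewer cells of a type and less RNA per cell cannot be told apart. Called genes were mostly protein-coding, with 202 higher and 299 lower of 7211. Higher ones had a median of 8.19 RPKM in PrmES and lower ones 4.88 RPKM, against 1.83 and 17.1 RPKM for the medians of the dye-sorted libraries.

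**Figure D2:**
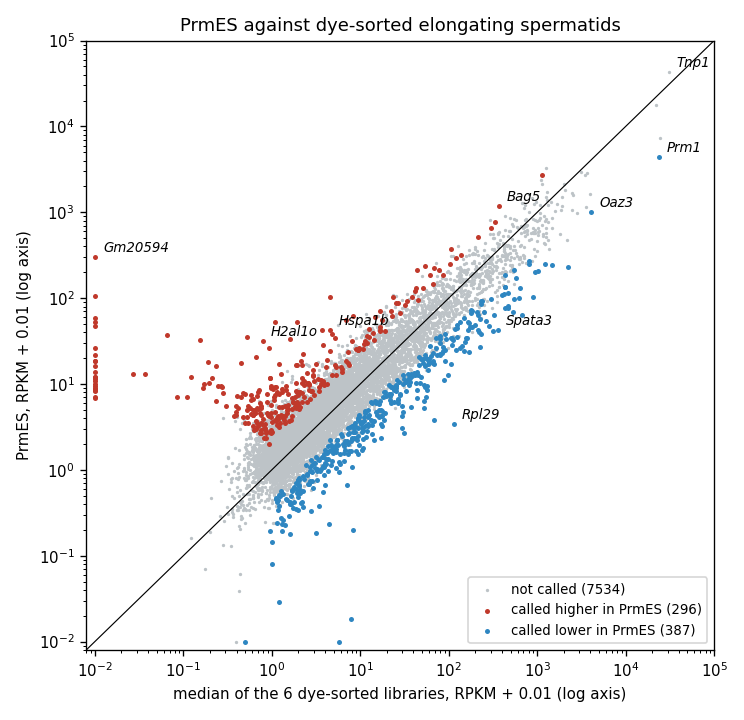
PrmES level against the median of the 6 dye-sorted libraries for 8217 genes, both as RPKM + 0.01 on log axes, with genes called higher (296) and lower (387) in colour and the line of equal levels. Bag5 and Hspa1b lie among the higher genes, and Rpl29, Spata3, Oaz3 and Prm1 among the lower ones.

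Among protein-coding genes that reached 20 RPKM in PrmES, the largest differences past the highest dye-sorted library included those of H2al1o, Rpl32l, Hspa1b and Faiml. H2al1o, an X-linked histone H2A variant gene of the H2A.L family, had 32.0 RPKM in PrmES, against 0.80, 0.43 and 0.78 RPKM in EES and 0.85, 0.38 and 0.78 RPKM in LES. It belongs to a family of near-identical copies, so reads may be placed on the wrong copy. Chmp5, a subunit of the ESCRT-III membrane remodelling complex, had 70.4 RPKM in PrmES, against 15, 12 and 18.6 RPKM in EES and 17.9, 17 and 16.3 RPKM in LES. Both genes stood clear of all 6 libraries, by 37.1-fold for H2al1o and 3.78-fold for Chmp5 over the highest. H2al1o, however, passed the level filter only through its PrmES level.

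Fam71a had 102 RPKM in PrmES, against 20.3, 25.2 and 24.9 RPKM in EES and 23.1, 22.2 and 24.5 RPKM in LES. Actrt3, an actin-related protein of the perinuclear theca, the cytoskeletal capsule around the sperm nucleus, had 60.8 RPKM in PrmES, against 13.7, 12.8 and 16.8 RPKM in EES and 16.7, 15.2 and 14.2 RPKM in LES. Faiml had 34.7 RPKM in PrmES and 3.14 to 6.08 RPKM in the dye-sorted libraries. For these 3 genes RS23 lay on the other side of its own comparison: Fam71a had 3.25 RPKM in RS23 and 6.64 to 12.9 RPKM in RS, Actrt3 1.17 and 2.93 to 4.74 RPKM, and Faiml 2.02 and 4.32 to 5.33 RPKM. Asdurf, an open reading frame upstream of and overlapping Asnsd1, had 210 RPKM in PrmES, against 29.5 to 55.2 RPKM in the dye-sorted libraries. It was called higher in RS23 too, with 70.6 RPKM against 14.7 to 22.4 RPKM in RS. Rpl32l, a copy of the ribosomal protein gene Rpl32, had 42.4 RPKM in PrmES and 2.02 to 4.51 RPKM in the dye-sorted libraries, while Rpl32 had 118 RPKM in PrmES and 232 to 372 RPKM in them. The division of reads between such copies is uncertain. Gm9112, on the X chromosome, had 22.1 RPKM in PrmES and 0.79 to 6.50 RPKM in the dye-sorted libraries.

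Hspa1b and Hspa1a encode the stress-inducible 70 kDa heat shock protein from neighbouring genes on chromosome 17, and the upstream bases are shown because the 2 genes moved by different amounts. Heat shock factor binds inverted repeats of the unit GAA, here searched as GAANNTTC or TTCNNGAA, each of which is its own reverse complement and so covers both strands. The 250 bases before each annotated start follow, from RefSeq (GRCm38.p6), with that match in capitals; they run 5′ to 3′ on the minus strand, chr17:34959239-34959488 for Hspa1b and chr17:34972157-34972406 for Hspa1a.
Hspa1b: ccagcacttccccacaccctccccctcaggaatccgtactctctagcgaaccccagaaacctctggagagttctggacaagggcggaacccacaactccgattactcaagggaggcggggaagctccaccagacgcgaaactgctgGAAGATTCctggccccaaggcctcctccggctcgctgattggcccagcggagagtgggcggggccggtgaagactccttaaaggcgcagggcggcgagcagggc
Hspa1a: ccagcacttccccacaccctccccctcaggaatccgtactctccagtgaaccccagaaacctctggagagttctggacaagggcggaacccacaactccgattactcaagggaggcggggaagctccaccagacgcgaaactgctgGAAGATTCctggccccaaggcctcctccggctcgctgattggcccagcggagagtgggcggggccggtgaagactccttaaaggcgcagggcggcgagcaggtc
The sequences differed at 3 of 250 bases (98.8% identical), and each held 1 match, starting at base 147. The motif occurs in 12.8% of all 32851 windows of that length, so a match is a description and not a site.

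Hspa1b had 42.4 RPKM in PrmES, against 5.09, 1.53 and 4.21 RPKM in EES and 4.37, 5.64 and 4.73 RPKM in LES, which is 7.51-fold above the highest. Hspa1a had 32.8 RPKM in PrmES, against 16.8, 6.74 and 14.8 RPKM in EES and 14.4, 17.8 and 15.2 RPKM in LES, above all 6 but 1.84-fold above the highest and so not called. The ratio of Hspa1b to Hspa1a was 1.29 in PrmES and 0.227 to 0.317 in the dye-sorted elongating libraries. Their sum was 75.2 RPKM in PrmES and 8.27 to 23.4 RPKM in the dye-sorted libraries. The genes are near-identical copies, and how reads shared by both were counted is not given in the sources used here, so the sum is the firmer value. In RS23 the sum was 1.67 RPKM, against 0.450 to 0.472 RPKM in RS, with 0.84 RPKM for Hspa1b against 0.07 to 0.14 RPKM in RS.

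Of 48 measured heat shock proteins and co-chaperones, 2 were called higher, Hspa1b and Bag5, and 2 lower, Hspb6 and Hspb9, shares near the 3.6% and 4.71% of all genes. By any margin 13 lay above all 6 libraries, beside 22% of all genes. Bag5, a co-chaperone of Hsp70 proteins, had 1185 RPKM in PrmES, against 359, 360 and 427 RPKM in EES and 373, 405 and 340 RPKM in LES. Hspb9, a small heat shock protein of the testis, had 247 RPKM in PrmES and 744 to 1420 RPKM in the dye-sorted libraries, and Hspb6 had 0.34 and 1.49 to 2.48 RPKM. Hspa1l, the Hsp70 gene of spermatids, had 1746 RPKM in PrmES, above the dye-sorted range of 608 to 1388 RPKM by less than 2-fold. The constitutive Hspa8 had 2.66 RPKM in PrmES, within 0.92 to 5.55 RPKM. The list's median log2 difference was 0.51, against 0.24 for all genes, and 0.00 when libraries were centred within GC classes, against -0.06 for all genes. None of 15 unfolded protein response genes was called, and 1 of 14 immediate-early genes, Nr4a1, was called lower. Without EES replicate 2, 4 heat shock genes were higher and 4 lower, and 2 and 2 unfolded protein response genes. These stand beside 723 higher and 600 lower of all 8217 genes in that setting.

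**Figure D3:**
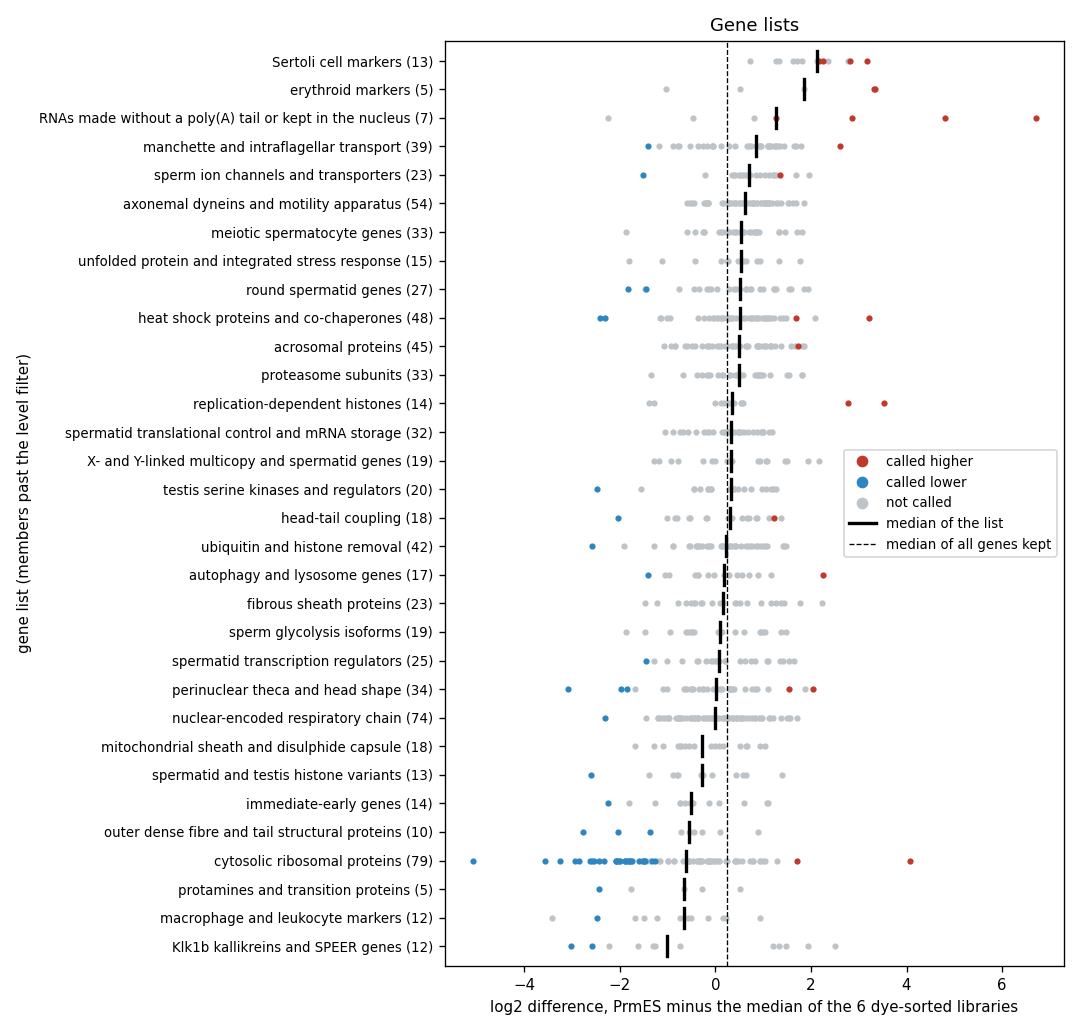
Log2 difference, PrmES minus the median of the 6 dye-sorted libraries, of every measured member of the 32 gene lists with at least 5 such members; each dot is a gene, bars are list medians, and the dashed line is the median of all genes (0.24). Ribosomal proteins hold the most genes called lower, 28 of 79.

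Of 79 measured cytosolic ribosomal protein genes, 2 were higher and 28 lower in PrmES, beside 3.6% and 4.71% of all genes. By any margin, 45 lay below all 6 libraries, beside 24.6% of all genes. The list's median log2 difference was -0.62, against 0.24 for all genes. Rpl29 had 3.38 RPKM in PrmES, against 129, 85.3 and 110 RPKM in EES and 115, 115 and 114 RPKM in LES, 25.2-fold below the lowest. Rpsa had 2.67 RPKM in PrmES and 22.8 to 34.5 RPKM in the dye-sorted libraries, and Rpl21 had 3.11 and 21.6 to 30.9 RPKM. In the other direction, Rpl5 had 7.88 RPKM in PrmES and 0.12 to 1.24 RPKM in the dye-sorted libraries, and Rpl27a had 23.9 and 4.36 to 7.61 RPKM. Rpl29 had 3.10 RPKM in RS23, against 64.3 to 76.5 RPKM in RS. There 30 of 78 ribosomal protein genes were called lower and 4 higher, beside 13.8% and 3.28% of all genes measured in both comparisons. Centring on the median gene, or within GC classes, left 15 of the 79 called lower, and quantile normalization 20. The list medians were then -1.02, -1.06 and -0.76, against -0.07, -0.06 and -0.04 for all genes. Read against all genes, the list's difference was larger than as deposited under both centrings and smaller under quantile normalization. Ribosomal protein genes have many near-identical pseudogene copies, so single members are uncertain.

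The other large decreases among protein-coding genes were mixed in kind. Ppp2r5d, a regulatory subunit of protein phosphatase 2A, had 3.78 RPKM in PrmES, against 75.9, 48.8 and 66.4 RPKM in EES and 71.7, 66.8 and 69.6 RPKM in LES. 1700013G24Rik, an abundant testis transcript, had 102 RPKM in PrmES, against 919, 562 and 833 RPKM in EES and 933, 926 and 866 RPKM in LES. Gm15517 had 64.1 RPKM in PrmES and 501 to 922 RPKM in the dye-sorted libraries, and BC048562 had 6.87 and 41.3 to 95.4 RPKM. The remaining 3 of the 10 largest decreases, Gm15501, 2410002F23Rik and Ifitm7, had 4.26 to 5.40 RPKM in PrmES and 23.1 to 59.6 RPKM in the dye-sorted libraries.

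Some genes of the sperm tail were lower in PrmES. Of 10 measured outer dense fibre and tail structural genes, 3 were lower in PrmES and none higher, beside 4.71% and 3.6% of all genes. The 3 were Odf3b, Oaz3 and Odf4. Oaz3, the antizyme of haploid germ cells, had 1000 RPKM in PrmES, against 4205, 2144 and 4002 RPKM in EES and 4261, 3940 and 4188 RPKM in LES. Odf3b had 8.43 RPKM in PrmES and 24.9 to 71.0 RPKM in the dye-sorted libraries, and Odf4 had 91.6 and 186 to 242 RPKM. Odf1, the core outer dense fibre protein, had 1673 RPKM in PrmES, inside 1475 to 2865 RPKM, and Odf2 had 2114 RPKM, above 688 to 1205 RPKM by less than 2-fold. None of the 3 lower genes passed the margin when libraries were centred on the median gene or within GC classes. The list median was -0.55 as deposited, against 0.24 for all genes. Under those centrings it was -0.83 and -0.72, against -0.07 and -0.06 for all genes. Read against all genes, the list's difference was thus slightly smaller under both centrings. No member was called in 23 fibrous sheath genes, 18 mitochondrial sheath genes, 54 axonemal dynein and motility genes or 19 sperm glycolysis genes. Without EES replicate 2, 7 axonemal genes were higher and none lower, and 3 fibrous sheath genes were higher and 2 lower. In the same setting 2 mitochondrial sheath genes were lower, and 1 glycolysis gene was higher and 2 lower. Of all 8217 genes, 723 were then higher and 600 lower.

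Of 34 perinuclear theca and head shape genes, 2 were higher and 3 lower in PrmES, beside 3.6% and 4.71% of all genes. Spata3 had 42.7 RPKM in PrmES, against 374, 174 and 345 RPKM in EES and 360, 368 and 360 RPKM in LES. Iqcn had 42.3 RPKM in PrmES and 115 to 216 RPKM in the dye-sorted libraries, and Actl11, an actin-like protein, had 68.6 and 141 to 299 RPKM. The 2 higher genes were Actrt3, given above, and Spata31d1c.

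The manchette is the microtubule sleeve that shapes the elongating nucleus and carries cargo to the tail, as intraflagellar transport does along the axoneme. Of 39 measured genes of both, 1 was higher, 1 lower, and 14 lay above all 6 libraries, beside 22% of all genes. The median log2 difference was 0.85, against 0.24 for all genes. Ift20, an intraflagellar transport subunit, had 8.54 RPKM in PrmES and 0.79 to 3.96 RPKM in the dye-sorted libraries. Meig1, needed for manchette function, had 2366 RPKM in PrmES, against 1071 to 1291 RPKM in the dye-sorted libraries, and Hook1, the manchette linker, had 334 RPKM against 119 to 200 RPKM, both above all 6 by less than 2-fold. Without EES replicate 2, 6 of the 39 were higher and 1 lower, beside 723 higher and 600 lower of all 8217 genes.

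Among 18 head-tail coupling genes, Tsga10 was higher, with 66.9 RPKM in PrmES and 26.5 to 32.5 RPKM in the dye-sorted libraries, and Oaz3, which is also in this list, was lower. Of 23 sperm ion channel and transporter genes, the CatSper calcium channel subunit gene Catsperd was higher, with 41.9 RPKM in PrmES and 16.0 to 19.3 RPKM in the dye-sorted libraries. Catsperg1, encoding another subunit of that channel, was lower, with 3.61 and 9.51 to 13.8 RPKM. Of 17 autophagy and lysosome genes, Ctsl was higher and Gabarap lower, the second with 66.7 RPKM in PrmES and 157 to 196 RPKM in the dye-sorted libraries.

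Of 13 measured spermatid and testis histone variants, H2bl1 was lower, with 245 RPKM in PrmES and 820 to 1631 RPKM in the dye-sorted libraries, and the other 12 were not called. Of 14 replication-dependent histone genes, 2 were higher, beside 3.6% of all genes. On the dye-sorted libraries alone 13 would have passed the filter, of which 1 was higher. The 2 were H2ac20 and H2bc4, with 7.45 RPKM in PrmES against 0.86 to 1.17 RPKM and 4.27 RPKM against 0.12 to 1.63 RPKM. The kallikrein genes Klk1b8 and Klk1b26, which encode secreted serine proteases, were lower. Klk1b8 had 77.1 RPKM in PrmES, against 476, 201 and 463 RPKM in EES and 466, 416 and 464 RPKM in LES, and Klk1b26 had 6.36 RPKM in PrmES and 22.7 to 59.2 RPKM in the dye-sorted libraries. Within the list of 12 Klk1b and SPEER genes, the 7 Klk1b genes had log2 differences of -3.03 to -0.75 and the 5 SPEER genes 1.21 to 2.51. The Klk1b genes are close paralogues, so reads may be divided among them. The list of 12 held 3 genes higher and 6 lower without EES replicate 2, beside 723 higher and 600 lower of all 8217 genes.

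Of 27 round spermatid genes, 2 were lower, beside 4.71% of all genes, and none was higher. Prr22 had 3.76 RPKM in PrmES and 13 to 47.8 RPKM in the dye-sorted libraries, and Sox30, a transcription factor, 7.70 and 18.3 to 30.5 RPKM. Acrv1 had 9.93 RPKM in PrmES, above 5 of the 6 dye-sorted libraries and below EES replicate 2. None of 33 meiotic spermatocyte genes and none of 4 spermatogonial markers was called. Without EES replicate 2, 4 round spermatid genes were higher and 3 lower, and 2 meiotic genes were higher. All 8217 genes held 723 higher and 600 lower in that setting. Other germ cell and housekeeping lists held at most 1 call, among them 45 acrosomal, 42 ubiquitin and histone removal, 32 translational control, 33 proteasome and 74 respiratory chain genes. Several of these counts changed with the setting. Without EES replicate 2, 5 acrosomal genes were higher, and 3 ubiquitin and histone removal genes were higher and 3 lower. In that setting 4 spermatid transcription regulators and 4 X- and Y-linked genes were higher. These too stand beside 723 higher and 600 lower of all genes. Of the respiratory chain genes, 5 were lower and 1 higher with median centring, beside 274 and 268 of all 8217 genes. With GC centring 7 were lower and 2 higher, beside 197 and 184 of 7537. With quantile normalization 6 were lower and 1 higher, beside 417 and 341 of 8217.

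Many of the largest differences in fold belonged to small nucleolar RNAs (snoRNAs), which guide chemical modification of ribosomal RNA and are cut from introns without a poly(A) tail. Snord82 and Snord83b, among those with the highest PrmES levels, are shown as examples; each is a C/D type RNA named for its C box, here TGATGA, and its D box, CTGA, both in capitals (first and last match in the GENCODE M21 transcript, GRCm38, minus strand; chr1:86356261-86356330 and chr15:80078498-80078591).
Snord82: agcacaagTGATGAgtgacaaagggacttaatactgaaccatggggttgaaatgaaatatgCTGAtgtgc
Snord83b: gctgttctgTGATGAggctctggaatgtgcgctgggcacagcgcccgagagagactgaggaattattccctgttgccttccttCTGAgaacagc
Snord82 had 1107 reads in PrmES (106 RPKM) and 1 read over the 6 dye-sorted libraries together. Snord83b had 741 reads in PrmES (52.8 RPKM) and 2 in the 6, a ratio of 1541 with an exact 95% interval of 425 to 12751; this interval covers counting error only. In RS23, Snord82 had 5620 reads and Snord83b 8893, against 0 and 5 over the 3 RS libraries.

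All 115 snoRNA genes of the table together had 13075 reads in PrmES, against 316 to 1351 reads per dye-sorted library, and 140385 reads in RS23, against 1928 to 3749 reads in RS. PrmES was above all 6 for 95 of the 115, and below all 6 for 1; over all 24594 genes of the table, filtered or not, it was above all 6 for 24.6%. By the 2-fold margin 87 of the 115 were higher, beside 5.49% of all genes of the table. Of the 115, 43 passed the filter and 38 of those were called higher, but only 8 would have passed on the dye-sorted libraries alone, of which 3 were called higher, so the 38 are not independent of the PrmES level. The 40 of up to 150 bases had 10375 reads in PrmES and 69 to 282 reads per dye-sorted library. The 3 longer ones had 633 reads in PrmES and 203 to 920 reads per dye-sorted library, and none of them was called. Snord99, Snord57 and Snord88a, also named by rule, had 291, 197 and 160 reads in PrmES and 0 over the 6 dye-sorted libraries. Other short nuclear RNAs were also higher: the minor spliceosome RNA gene Rnu12 had 26.2 RPKM in PrmES and 0.44 to 3.28 RPKM in the dye-sorted libraries, Rnu11 4.30 and 0.00 to 1.77 RPKM, and the U8 snoRNA gene Snord118 12.1 and 0.00 to 1.56 RPKM. Rmrp and Rpph1, the RNAs of RNase MRP and RNase P, were not, with 34.2 RPKM in PrmES against 14.9 to 158 RPKM for Rmrp and 31.8 RPKM against 56.3 to 577 RPKM for Rpph1. The sources used here do not state RNA selection or fragment size per library, and their part in these differences was not tested.

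**Figure D4:**
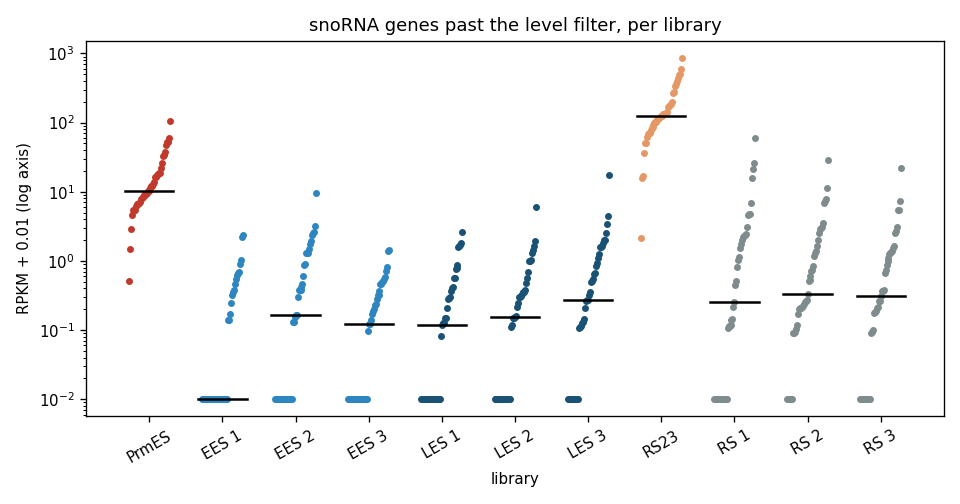
RPKM + 0.01 (log axis) of the 43 snoRNA genes that passed the level filter, sorted within each library; bars are medians over genes. The PrmES median is 10.3 RPKM, and the medians of PrmES and RS23 lie above those of the EES, LES and RS libraries, but only 8 of the 43 pass the filter without PrmES.

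Gm20594 had the largest fold of any protein-coding gene. It lies at chr6:79817916-79818364 (plus strand, GENCODE M21, GRCm38) and had 19970 reads in PrmES (298 RPKM), against 2 reads, both in EES replicate 2, over the 6 dye-sorted libraries. The ratio per read sequenced was 41540, with an exact 95% interval of 11498 to 343028 that covers counting error only. RS23 had 21830 reads (305 RPKM) and the 3 RS libraries 0, at least 17293-fold higher with 3 reads allowed over the 3. Its 449-base transcript was 68.2% identical, without gaps, to the mitochondrial 16S ribosomal RNA gene mt-Rnr2 on the same strand, with an unbroken shared run of 65 bases. Reads of the mitochondrial copy itself were not analysed here, and the part of such reads in this difference was not tested.

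Long non-coding RNAs were called lower more often than higher, 71 against 21 of 729, beside 4.71% lower and 3.6% higher of all genes; the balance over all genes moved with scaling, with 338 higher and 340 lower when scaled to reads in genes. 1810044D09Rik had 11.2 RPKM in PrmES and 65.8 to 103 RPKM in the dye-sorted libraries, 1700016A09Rik 2.35 and 10.7 to 19.0 RPKM, AI507597 99.4 and 398 to 736 RPKM, and 1700030C14Rik 14.7 and 56.5 to 66.2 RPKM. Of 112 transcribed pseudogenes, 17 were higher and 7 lower; Gm7977 had 12 RPKM in PrmES and was listed at 0 in all 6 dye-sorted libraries, with 12.8 RPKM in RS23 and 0.00 to 0.05 RPKM in RS. Of 101 microRNA entries past the filter, 13 were higher and 10 lower. The pseudogene and microRNA counts likewise stand beside 3.6% higher and 4.71% lower of all genes. Gm7977 passed the filter only through its PrmES level. How many others of these gene types did so was not counted, so their higher calls are not independent of that level.

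Markers of the somatic cells of the testis were mostly low, with some higher and some lower in PrmES. Sertoli cells nurse the germ cells and take up their residual cytoplasm. Of 31 Sertoli markers, 13 passed the filter. Of the 13, 4 were called higher and 11 lay above all 6 libraries, beside 3.6% and 22% of all genes. On the dye-sorted libraries alone 12 would have passed, of which 3 were called higher. The list summed to 161 RPKM in PrmES and 16.6 to 105 RPKM in the dye-sorted libraries, highest in LES replicate 3, and to 50.3 RPKM in RS23 and 9.8 to 11.3 RPKM in RS. Tsx had 16.5 RPKM in PrmES, against 0.83, 0.41 and 2.37 RPKM in EES and 2.53, 1.42 and 5.06 RPKM in LES. Cldn11, of the tight junctions between Sertoli cells, had 6.09 RPKM in PrmES and 0.13 to 1.88 RPKM in the dye-sorted libraries, Gsta4 18.9 and 1.49 to 6.09 RPKM, and Ctsl, cathepsin L, 4.30 and 0.35 to 1.97 RPKM. None of the 31 was at 0 in PrmES.

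Of 7 erythroid markers, 5 passed and 2 were higher, beside 3.6% of all genes. On the dye-sorted libraries alone 4 would have passed, of which 1 was called higher. Hbb-bt, a beta globin gene, had 9.56 RPKM in PrmES and 0.31 to 1.95 RPKM in the dye-sorted libraries. Alas2, of erythroid haem synthesis, had 5.25 and 0.19 to 1.18 RPKM. The erythroid sum was 161 RPKM in PrmES and 117 to 301 RPKM in the dye-sorted libraries and consisted mostly of Car2, with 130 RPKM in PrmES and 105 to 289 RPKM in the others. Of 12 myoid markers 2 passed, and Myl9 was higher, with 8.14 RPKM in PrmES and 0.37 to 3.81 RPKM in the dye-sorted libraries. The other marker that passed lay below all dye-sorted libraries but was not called. The myoid list summed to 213 RPKM in PrmES, below the 363 to 584 RPKM of the dye-sorted libraries. Of 12 macrophage and leukocyte markers past the filter none was higher and C1qb was lower; that list summed to 15.1 RPKM in PrmES and 14.2 to 264 RPKM in the dye-sorted libraries. No Leydig, endothelial or epididymal marker was called. Their sums were 21.3, 4.5 and 615 RPKM in PrmES, against 7.6 to 17.4, 5.0 to 7.4 and 581 to 1032 RPKM in the dye-sorted libraries. Only 1 of the 15 epididymal markers passed the filter and 6 were at 0 in PrmES, so that sum consisted mostly of 1 gene. The part of other cell types in the germ cell differences was not tested.

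RS23, which shares both the dye and the column prefix with PrmES, moved with it for many of the called genes. RS23 was called against the 3 RS libraries by the same rule, and no library is shared between the 2 comparisons. Of 10269 genes past the filter there, 405 were higher (3.94%) and 1251 lower (12.2%). Over the 7409 genes measured in both comparisons, 3.28% were higher and 13.8% lower in RS23. Of the genes higher in PrmES, 220 were among these, and 102 were also higher in RS23 (46.4% of the 220, and 42.0% of the RS23 calls), while 13 were lower there. The 102 include all 38 snoRNAs called higher in PrmES, which raise this share. The rest of the 102 are not snoRNAs, so the overlap is not confined to them. Of the genes lower in PrmES, 346 were measured in both; 247 were also lower in RS23 (71.4% of the 346, and 24.2% of the RS23 calls), and none was higher. The median log2 difference in RS23 was 1.11 for genes higher and -1.68 for genes lower in PrmES, and -0.30 for all genes. Leaving out genes called the same way in RS23 left 194 higher and 140 lower. Hspa1b, H2al1o and the Sertoli genes Ctsl and Cldn11 are below the filter in RS23 and RS, Bag5 was not called in RS23 (472 RPKM, against 246 to 309 RPKM in RS), and Chmp5 was not called there (7.10 RPKM, against 4.28 to 5.35 RPKM). RS23 also differs from RS in the age given in its title, so dye, age, sort and column prefix cannot be told apart in that comparison.

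The difference followed base composition, length and level across protein-coding genes. The median log2 difference, PrmES minus the median of the 6, was 0.75 for transcripts under 40% GC, 0.56, 0.39, 0.11 and -0.16 in the following 5-point classes, and -0.33 at 60% GC or more. RS23 minus RS ran down in nearly the same order, with 0.25 in the lowest class, -0.68 at 55% to 60% and -0.63 in the highest. Exon lengths here were inferred from the deposited values. By these lengths, the PrmES difference was -0.01 under 500 bases, -0.07 from 500 to 1000 bases, and 0.43 at 8000 bases or more. The RS23 difference was -0.47, -0.82 and 0.18 in those classes. By mean level over the 7 libraries, the PrmES difference fell from 0.49 under 3 RPKM to -0.57 at 300 RPKM or more. The RS23 difference fell from -0.14 to -0.71 between those classes, and the share called lower in PrmES was 2.02% and 10.3% in them. Genes called lower had a median GC content of 53.8% and a median exon length of 2165 bases, and genes called higher 47.5% and 2772 bases, beside 49.6% and 3589 bases for all. Centring within GC classes, an alternative added after the data were seen, left 184 higher and 197 lower of 7537 genes with a GC value. Of 61 called genes named by rule, 36 remained called under it; of the losses, Prm1, Oaz3, Odf3b, Odf4, Actl11, Iqcn, Klk1b8, Klk1b26, Gabarap, Catsperd, Catsperg1, Ctsl and Tsga10 moved inside the margin or the range, while AI507597, 1700030C14Rik, Gm15517, Gm15501, Gm7977, Rnu11 and the snoRNAs have no GC value and were not in that set. Hspa1b had log2 differences of 3.22 as deposited and 3.29 with GC centring.

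**Figure D5:**
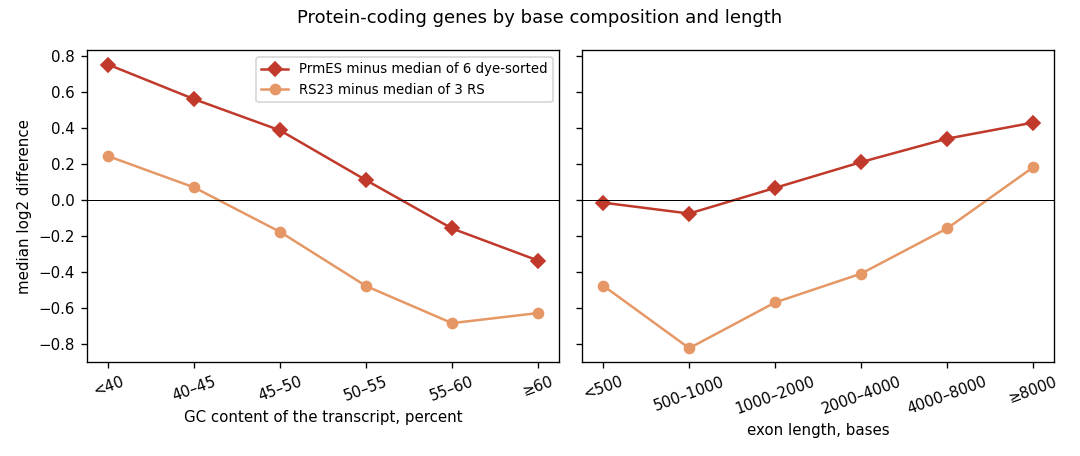
Median log2 difference of protein-coding genes in classes of transcript GC content (left) and exon length (right), for PrmES minus the median of the 6 dye-sorted elongating libraries (diamonds) and RS23 minus the median of the 3 RS libraries (dots). The PrmES medians run down from 0.75 under 40% GC to -0.33 at 60% or more.

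The genes gained during elongation were represented in both sets of calls. The LES libraries enter both the calls and the difference given here, so these are not independent. Genes called lower are selected for high LES levels, which raises their difference from RS. The log2 difference between LES and RS means had a median of 0.94 over the protein-coding genes higher in PrmES and 0.39 over those lower, against -1.15 over all 7211. At least 2-fold more RNA in LES than in RS was seen for 48.0% of the higher and 32.8% of the lower genes, against 21.8% of all.

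In the deposited de novo transcriptome, which the labels list for the dye-sorted samples and not for PrmES or RS23, 12670 genes passed the same filter, 287 were higher (2.27%) and 1260 lower (9.94%) in PrmES. There were 743 higher and 1803 lower without EES replicate 2, with median centring 414 and 730, and with quantile normalization 517 and 799. Reads in de novo genes came to 95.2% of the inferred total in PrmES and 97.9% to 107.8% in the dye-sorted libraries. The part of this difference in the counts was not tested. Among the 2905 with no GENCODE M21 gene on their strand, 59 were higher (2.03%) and 416 lower (14.3%). MSTRG.6220 had 1441 RPKM in PrmES, against 169, 183 and 193 RPKM in EES and 153, 175 and 171 RPKM in LES. It is a 3-exon transcript of 369 bases at chr13:34914561-34916926 (plus strand, GRCm38), opposite Fam217a. MSTRG.18549, opposite Gm4961, had 31.1 RPKM in PrmES and 1.10 to 4.75 RPKM in the dye-sorted libraries, and MSTRG.20501, with no GENCODE gene on either strand, 7.10 and 0.93 to 1.17 RPKM. In the lower direction, MSTRG.21423, opposite Sspn, had 0.21 RPKM in PrmES, against 91.9, 36.9 and 68.8 RPKM in EES and 187, 238 and 103 RPKM in LES. MSTRG.8288, opposite D130009I18Rik, had 0.21 RPKM in PrmES and 23.8 to 98.8 RPKM in the dye-sorted libraries, and MSTRG.19433, opposite Rplp0, 0.47 and 18.1 to 30.3 RPKM. All 3 were also low in RS23, at 0.07, 0.04 and 0.35 RPKM, against RS levels of 15.8 to 35.6, 7.74 to 31.4 and 15.9 to 21.1 RPKM. Whether reads were counted by strand is not given in the sources used here, so the sense and antisense parts of such loci cannot be told apart.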

How the data were processed

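RNA was extracted with a DirectZol kit and libraries were made with the Illumina TruSeq kit, per the labels' protocols. Trim Galore and STAR, and the builds GRCm38 and mm10, are named in the submitters' processing notes. StringTie 1.3.4d wrote the deposited de novo annotation, per its header. The authors deposited log2 values, found to be log2 of 100 times RPKM plus 1. RPKM was recovered from them. Library totals were inferred by taking the smallest de novo value above 0 of a library, multiplied by exon length, as 1 read. With these totals and the exon lengths of the deposited annotation, 100% of the de novo genes gave whole reads within 0.01 read. In the gene table the exon lengths were themselves inferred, as the smallest that make the values whole. Whole reads in that table thus hold by construction. Symbols and gene types came from RefSeq (GRCm38.p6), which holds 24570 of the 24594 gene IDs. GC content is that of the longest GENCODE M21 transcript.

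Calls, filter and comparisons are as defined above; the call rule was tested on simulated data. Named genes are the 10 largest protein-coding calls in each direction at 20 RPKM or more, the 3 largest of each of 37 lists with 2 or more calls plus 1 in the other direction, the 5 largest non-coding calls in each direction at 10 RPKM, the 3 largest de novo genes and the marker genes. The groups, members and lists were chosen with earlier results of these data known. Alternatives were other margins, filters, pseudocounts, scalings and sets of dye-sorted libraries. Python 3.11.15 with pandas 2.3.3 was used. Some items met by the naming rule are not reported here.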

Additional observations from a re-analysis of the deposited data

Results flagged for a closer look

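A set of 6 named genes lay outside all dye-sorted libraries of the comparison in opposite directions in PrmES and RS23. The difference between the comparisons was not tested. The log2 difference was 2.75 in PrmES (minus the median of the 6) and -1.11 in RS23 (minus the median of the 3 RS) for Faiml, 2.11 and -1.34 for Fam71a, 2.05 and -1.57 for Actrt3, 1.34 and -0.11 for Catsperd, 0.52 and -2.29 for Tnp1, and -2.81 and 0.1 for 2410002F23Rik. In the first 3, both differences passed the 2-fold margin.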

How the results depend on the processing

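Counts of genes called in PrmES (296 higher, 387 lower) depended on the margin, the level filter and the set of dye-sorted libraries. They were 1805 higher and 2024 lower with any margin, 86 and 52 at 4-fold, and 775 and 785 at 2-fold from the median of the 6. With no filter 1350 were higher, with at least 1 RPKM in 3 of the 6 dye-sorted libraries 186 were higher, and with a mean of 10 RPKM 56 were higher and 212 lower. A pseudocount of 1 RPKM left 249 lower. Against EES alone 449 were higher, and against LES alone 787 were higher and 684 lower. Added after the data were seen, centring within GC classes gave 184 and 197, and leaving out genes called alike in RS23 gave 194 and 140. Leaving out 1 dye-sorted library gave 297 to 723 higher and 393 to 600 lower, with the upper ends without EES replicate 2. The balance of higher and lower calls moved with scaling, with 338 and 340 when scaled to reads in genes, 268 and 274 with median centring, and 341 and 417 with quantile normalization. The percentage called alike in RS23 was 83.1 of the higher and 46.7 of the lower genes at 4-fold, and 27.4 of the higher at 2-fold from the median and 26.5 at a mean of 10 RPKM.

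For de novo genes (287 higher, 1260 lower), any margin gave 2248 and 4395, the 4-fold margin 58 and 344, 2-fold from the median 819 and 2268, and a mean of 10 RPKM 68 and 416. No filter gave 700 higher, a pseudocount of 1 RPKM 625 lower, median centring 730 lower, quantile normalization 517 and 799, EES alone 437 higher, and LES alone 836 and 1967. Leaving out 1 library gave 295 to 743 higher and 1267 to 1803 lower. The causes were not tested. Of 61 called genes named by rule, median centring lost 12, quantile normalization 4 and a pseudocount of 1 RPKM 4. Under quantile normalization the log2 difference of Tnp1 was 0.00. No paired analysis was possible because PrmES is 1 library and no test was made. With 1 PrmES library, its own spread is unknown, and values that rest on few reads are also limited by depth.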
